A study of Mus musculus with 32 samples.

Results

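Chemokine ligand genes encode the small secreted or membrane-tethered proteins that guide leukocytes through tissue. The set described here is a fixed list of 31 mouse gene symbols, found by name. All 31 were found among the 35275 genes of the deposited count table. The rule holds no measured value, but the list was drawn up with earlier results of these data known. Counts and medians of the members therefore cannot be weighed against the values over all genes printed beside them. RNA sequencing of poly(A) RNA was done on lungs of C57B/6 mice in 32 libraries, which form 8 groups in 2 experiments. In the first experiment females and males breathed cigarette smoke (5 libraries per sex) or room air (3 libraries per sex), all with an exposure time of 5 months and no surgery. In the second experiment every mouse was female and every mouse was exposed to cigarette smoke. Ovariectomy, which removes the ovaries, was set against sham surgery at 3 months of exposure (3 libraries each) and at 5 months (5 libraries each). The second experiment therefore has no air group, and its comparisons are of surgery or time within smoke. Nothing in the labels says that each library is a different mouse, and p-values therefore measure only library-to-library spread, which may be technical. In whole lung RNA, fewer cells of a type and less RNA per cell cannot be told apart.

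Chemokines bind heptahelical receptors on leukocytes and set up gradients along which the cells crawl. Each receptor is carried by a limited set of cells, so a ligand is usually described by the leukocyte it draws. Ligands with a Glu-Leu-Arg motif before the CXC cysteines bind Cxcr2 and draw neutrophils, those of Ccr2 draw classical monocytes, those of Cxcr3 draw effector T and natural killer (NK) cells, and those of Ccr7 draw dendritic cells and naive lymphocytes. In the lung, epithelium, macrophages, fibroblasts and lymphatic endothelium are all sources, and smoke is known to bring neutrophils and macrophages into the airways. The 31 genes were placed in 10 classes by the cell they draw.

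Library totals lay between 13790052 and 24497332 counts. The labels of sex held in all 32 libraries: Xist was at 0.637 to 3.99 CPM (counts scaled to library size, and to library composition within an experiment) in males and at 264 to 644 CPM in females. The tissue label also held, with the summed level of 7 alveolar type 2 cell markers, Sftpc and Sftpb among them, at 37527 to 59160.2 CPM. In 7 libraries the liver transcript Alb was over 100 CPM, namely ovariectomy libraries 2 and 3 and no sham library at 3 months, ovariectomy library 5 and sham libraries 1 and 2 at 5 months, male air library 1 and female air library 2. Of 6 liver transcripts, 5 fell in smoke-exposed males against air and 0 passed in females. No 2 libraries of a group were near-copies. Counts of Ccl21a and Ccl27a are uncertain because both genes have near-identical copies. Ccl2, Ccl6, Ccl19, Ccl21a, Ccl27a, Cxcl10, Cxcl11 and Cxcl16 overlap a gene on the other strand, and whether the counting used strand is not given in the sources used here.

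The level of these genes ran from silent to among the abundant transcripts of the lung. The level in TPM (a share of transcripts, which allows for gene length) had a median over the 32 libraries of at least 100 in 4 genes, 10 to under 100 in 7, 1 to under 10 in 13, and under 1 in 7. Cxcl15, also called lungkine and made by lung epithelium, had a median of 2496 TPM (range 1412 to 3174). It alone supplied 58.2% to 78.4% of the summed TPM of the 31 genes in each library (median 74.9%). Ccl6, a ligand of Ccr1 known from rodents, followed at 231 TPM (160.4 to 771). Next came Ccl21a, the lymphatic ligand of Ccr7, at 163 TPM (79.3 to 239), and Cxcl14, a ligand made by epithelium and fibroblasts at rest, at 117 TPM (96.9 to 415). Cxcl16 at 69.3 TPM, Cxcl17 at 46.7 TPM and Ccl5 at 27.03 TPM completed the leading group. At the other end, Ccl1 had 0 counts in 28 of 32 libraries with a highest count of 9, and Cxcl11, listed in the count table as a polymorphic pseudogene, had 0 counts in 21 libraries with a highest count of 7. Neither passed the filter on low counts, so 29 genes were tested in each experiment. Within the other classes the most abundant gene was Ccl12 among the Ccr2 ligands (5.30 TPM), Ccl11 among the eosinophil ligands (6.40 TPM), Ccl8 among the Ccr8 ligands (15.5 TPM) and Ccl27a among those of Ccr9 and Ccr10 (18.1 TPM).

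**Figure D1:**
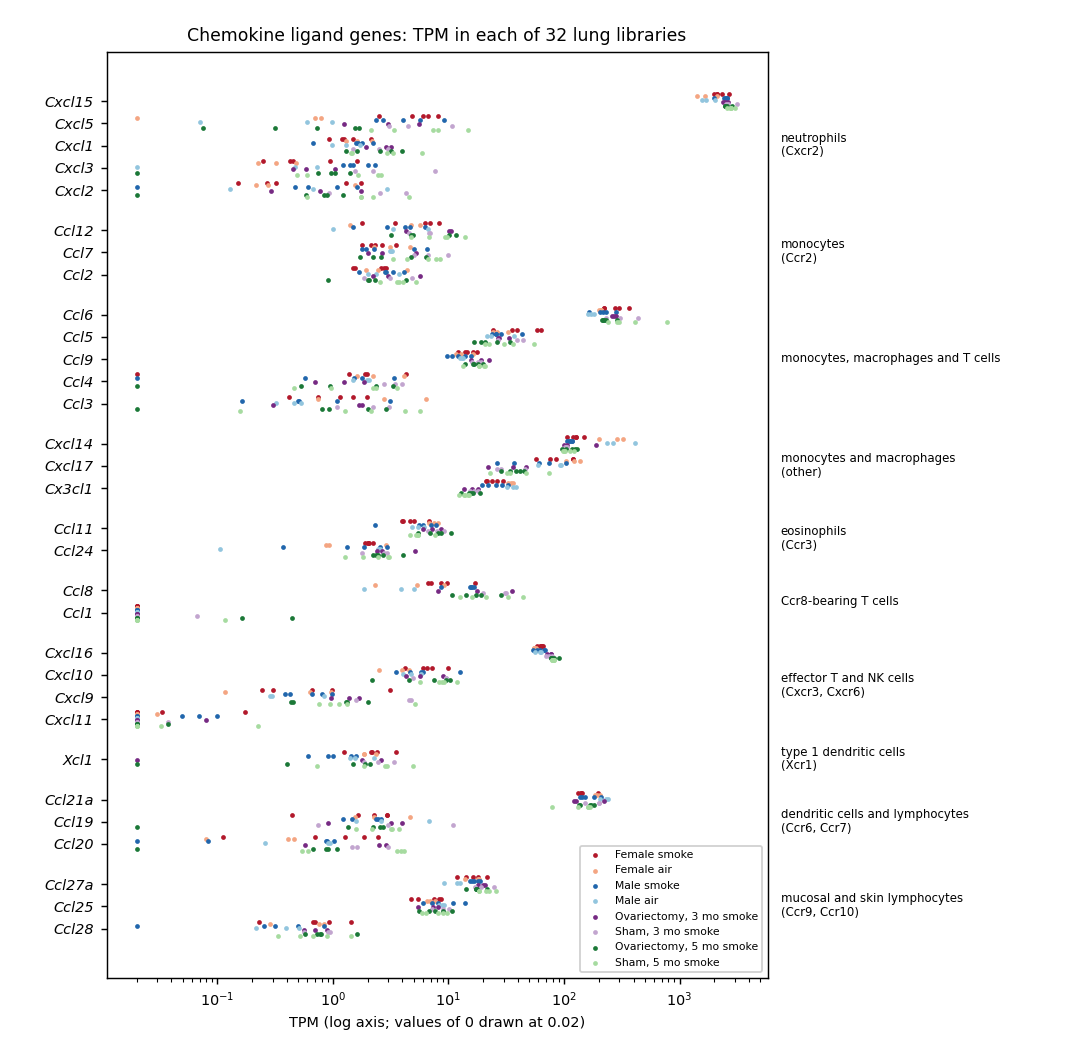
TPM on a log axis for each of the 31 chemokine ligand genes in each of 32 lung libraries (points, coloured by group, values of 0 drawn at 0.02), ordered by the leukocyte drawn. Cxcl15 lies between 1412 and 3174 TPM in every library, above all other members, and Ccl1 and Cxcl11 are at 0 in 28 and 21 libraries.

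Most of the genes lie in a few tight clusters. On chromosome 5, Cxcl5, Cxcl3, Cxcl15, Cxcl1 and Cxcl2 lie within 146.6 kb (chr5:90759299-90905909, coordinates of the count table), all on the plus strand, and Cxcl9, Cxcl10 and Cxcl11 lie within 44.2 kb (chr5:92321331-92365485). On chromosome 11, Ccl2, Ccl7, Ccl11, Ccl12, Ccl8 and Ccl1 lie within 270.1 kb (chr11:82035571-82305690), and Ccl5, Ccl9, Ccl6, Ccl3 and Ccl4 within 138.9 kb (chr11:83525778-83664683). Neighbours differed widely in level: in the cluster that holds Cxcl15 at 2496 TPM, the medians were 2.83 TPM for Cxcl5, 1.69 for Cxcl1, 0.947 for Cxcl3 and 0.863 for Cxcl2.

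Promoter sequences show one feature that sets members of that cluster apart from each other. Promoter windows from RefSeq (build GRCm38.p6), of which the 250 bases upstream of a gene's start were searched and the 50 after it were not, were matched for 21 of the 31 genes, taking the first window listed for a gene. Cxcl5, Ccl2, Ccl7, Ccl4, Ccl5, Cxcl17, Ccl11, Ccl24, Cxcl11 and Cxcl16 were not matched. Shown first are stretches of 81 bases from Cxcl1 (chr5:90891154-90891234), Cxcl2 (chr5:90903782-90903862) and Cxcl3 (chr5:90786008-90786088), plus strand. They hold the same letters in capitals, which match the NF-kB consensus on each strand, the matches overlapping. NF-kB is the transcription factor family through which many inflammatory signals switch on chemokine genes. In Cxcl3 a TATAAA is also in capitals. The 250 bases of Cxcl15 (chr5:90794284-90794533, plus strand), the abundant neighbour, hold no NF-kB match and have a TATAAA in capitals. The last pair are genes whose RNA differed between smoke and air. Ccl8 (chr11:82114935-82115184, plus strand) has a TATAAA in capitals. Cxcl14 (chr13:56296552-56296801, minus strand) has in capitals a match to GAAA, any 2 bases and GAAA again, the core of the interferon-stimulated response element. All are written 5′ to 3′ on the strand of the gene.
Cxcl1: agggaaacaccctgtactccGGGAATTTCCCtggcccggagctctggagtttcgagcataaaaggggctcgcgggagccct
Cxcl2: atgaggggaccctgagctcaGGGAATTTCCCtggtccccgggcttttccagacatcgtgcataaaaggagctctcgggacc
Cxcl3: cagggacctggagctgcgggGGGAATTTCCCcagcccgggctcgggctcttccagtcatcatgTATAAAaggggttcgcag
Cxcl15: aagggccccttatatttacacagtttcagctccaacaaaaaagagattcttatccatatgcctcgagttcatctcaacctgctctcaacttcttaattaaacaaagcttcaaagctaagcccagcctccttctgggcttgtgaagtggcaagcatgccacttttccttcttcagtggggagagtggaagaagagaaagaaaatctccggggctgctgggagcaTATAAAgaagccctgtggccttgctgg
Ccl8: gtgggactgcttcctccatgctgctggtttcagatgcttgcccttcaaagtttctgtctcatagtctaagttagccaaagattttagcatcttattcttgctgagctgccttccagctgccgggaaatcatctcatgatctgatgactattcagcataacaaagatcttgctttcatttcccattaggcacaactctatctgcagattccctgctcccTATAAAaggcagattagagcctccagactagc
Cxcl14: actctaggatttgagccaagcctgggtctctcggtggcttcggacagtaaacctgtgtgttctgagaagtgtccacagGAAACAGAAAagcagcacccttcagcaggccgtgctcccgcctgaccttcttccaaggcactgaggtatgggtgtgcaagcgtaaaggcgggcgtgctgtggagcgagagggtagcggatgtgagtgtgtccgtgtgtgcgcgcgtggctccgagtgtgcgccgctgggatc
Both strands were searched. Member genes were counted on the first window listed. The shares over all windows count every window, and a gene can have several, so the units differ. A match to the NF-kB consensus was present in 7 of the 21 matched genes (33.3%: Cxcl1, Cxcl2, Cxcl3, Cxcl10, Ccl1, Ccl9 and Ccl20), against 7.25% of all 32851 promoter windows. TATAAA was present in 7 (33.3%), against 12.37% of all windows, and the interferon core in 3 (14.3%: Cxcl14, Cxcl10 and Ccl19), against 2.98%. A match describes letters in the window and is not a site shown to be bound, and no match says only that these letters are not in that window.

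What prolonged smoke changes among the chemokines was asked by setting smoke against air within each sex. In females 3 of 29 genes passed edgeR's quasi-likelihood test (adjusted p under 0.05 over all genes): Cxcl5 rose, and Cxcl14 and Cx3cl1 fell. In males 5 of 29 passed: Cxcl5, Ccl8 and Cxcl15 rose, and Cxcl14 and Cx3cl1 fell. Over all 16361 genes tested, 7.7% passed in females (4.52% higher and 3.18% lower) and 10.3% in males (4.93% higher and 5.33% lower). The median log2 fold change over the 29 genes was 0.11 in females and 0.12 in males, and over all genes it was -0.01 and 0.01. Unadjusted p was under 0.05 for 11 of the 29 genes in females, against 21.3% of all genes, and for 9 in males, against 23.2%. DESeq2 gave an adjusted p to all 29 in females and to 26 in males, Cxcl2, Cxcl3 and Xcl1 having none. Where smoke and air libraries are said below not to overlap, the share of all genes without overlap was not counted. With so few air libraries, separation is a weak criterion.

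**Figure D2:**
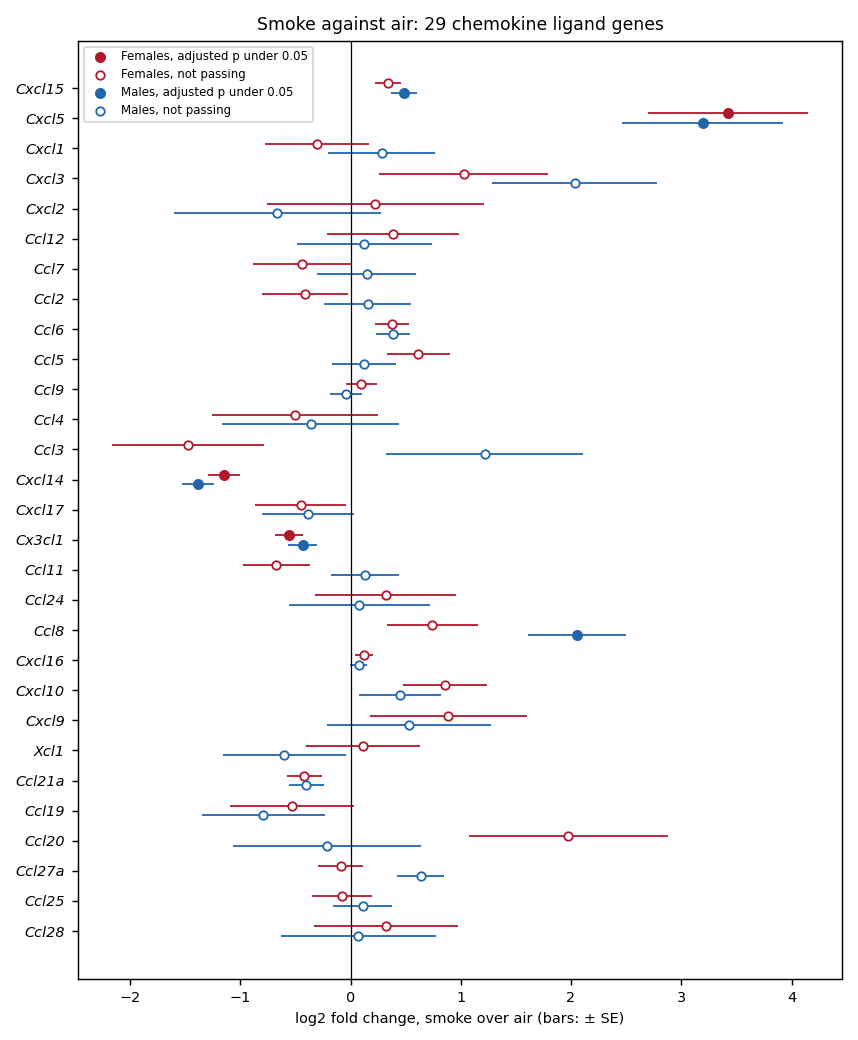
log2 fold change of smoke over air (x axis, bars ± SE) for the 29 tested chemokine ligand genes in females (red) and males (blue), with filled points for an adjusted p under 0.05. Cxcl5 stands farthest to the right in both sexes (3.42 and 3.19), and Cxcl14 is filled on the left in both (-1.15 and -1.39).

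Among the neutrophil ligands, Cxcl5 made the largest change of any tested chemokine ligand in either sex. Cxcl5 (ENSMUSG00000029371, chr5:90759299-90761625) is a Cxcr2 ligand that in the mouse lung comes largely from epithelium. Its level was 6.35, 1.98, 3.71, 5.09 and 4.85 CPM in the 5 smoke libraries of females, against 0.583, 0.587 and 0 CPM in their 3 air libraries. All 5 smoke libraries lay above all air libraries, of which 1 had no read. The means were 4.40 ± 1.65 CPM in smoke (SD, n = 5) and 0.390 ± 0.338 CPM in air (SD, n = 3). The ratio was 10.7-fold (log2 fold change 3.42, SE 0.72, adjusted p = 0.00822). In males it was 2.08, 7.01, 1.82, 4.85 and 3.34 CPM in smoke and 0.0586, 0.470 and 0.713 CPM in air, again without overlap (log2 fold change 3.19, SE 0.73, adjusted p = 0.0104). The rises of the sexes could not be told apart: the male minus female difference in log2 fold change was -0.23, SE 1.02, adjusted p = 0.995. With any single library left out the call stood in both sexes (adjusted p 0.00592 to 0.0296 in females and 0.00856 to 0.0486 in males). With the replicate number as a block the male call ended (log2 fold change 2.97, adjusted p = 0.0549).

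Cxcl15, the most abundant member, differed by less than Cxcl5. In males its level was 2570.1, 2470.0, 2536, 2197 and 2571 CPM in smoke, against 1792, 1597 and 1903 CPM in air. The groups did not overlap, and the 1.40-fold rise passed the test (log2 fold change 0.48, SE 0.12, adjusted p = 0.0111), although without male air library 2 it did not (adjusted p = 0.0869). In females smoke libraries had 2008, 2712, 2094, 2298 and 2223 CPM and air libraries 2229, 1595 and 1559 CPM, with air library 1 inside the range of smoke (log2 fold change 0.34, SE 0.12, adjusted p = 0.0889). Without that library the female difference passed (log2 fold change 0.52, adjusted p = 0.0110), and DESeq2 called it with all libraries (0.35, adjusted p = 0.0253). The interaction of sex and smoke did not pass for it either (difference of log2 fold changes 0.15, SE 0.17, adjusted p = 0.956). Beside it, the summed level of the 7 alveolar type 2 cell markers was 43281 to 51403 CPM in smoke and 40069 to 43534 CPM in air in males, and 40899 to 53383 and 37527 to 47553 CPM in females. Of these markers 1 of 7 rose in each sex, Abca3 in females (0.53 as log2 fold change) and Lyz2, which macrophages also express, in males (0.35). Their part in the rise of Cxcl15 was not tested.

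The remaining neutrophil ligands, Cxcl1, Cxcl2 and Cxcl3, did not pass in either sex. All carry the NF-kB match shown above. Cxcl3 came closest: in males it was 0.669, 0.701, 0.940, 0.637 and 1.18 CPM in smoke and 0.235, 0.352 and 0 CPM in air, with every smoke library above every air library (log2 fold change 2.03, SE 0.75, adjusted p = 0.0904). Those levels rest on 9 to 18 reads a library in smoke and 0 to 6 in air. In females Cxcl3 overlapped between 0.123 to 0.782 CPM in smoke and 0.118 to 0.243 CPM in air (log2 fold change 1.02, SE 0.77, adjusted p = 0.49). Cxcl1 had a log2 fold change of -0.31 (SE 0.47) in females and 0.28 (SE 0.49) in males, and Cxcl2 of 0.23 (SE 0.98) and -0.66 (SE 0.94). Most markers of the neutrophils themselves did not pass. Of 11 tested neutrophil markers 2 rose in females (S100a8 1.23 and S100a9 1.19 as log2 fold changes) and 3 in males (S100a8 1.57, S100a9 1.14 and Mmp9 0.59), with 0 falling. Their summed level was 150.4 to 254 CPM in smoke and 118 to 187 CPM in air in females, and 90.1 to 188 and 66.6 to 142 CPM in males. Ly6g was at 0 in all 3 male air libraries. What part neutrophils had in the level of Cxcl5 was not tested.

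**Figure D3:**
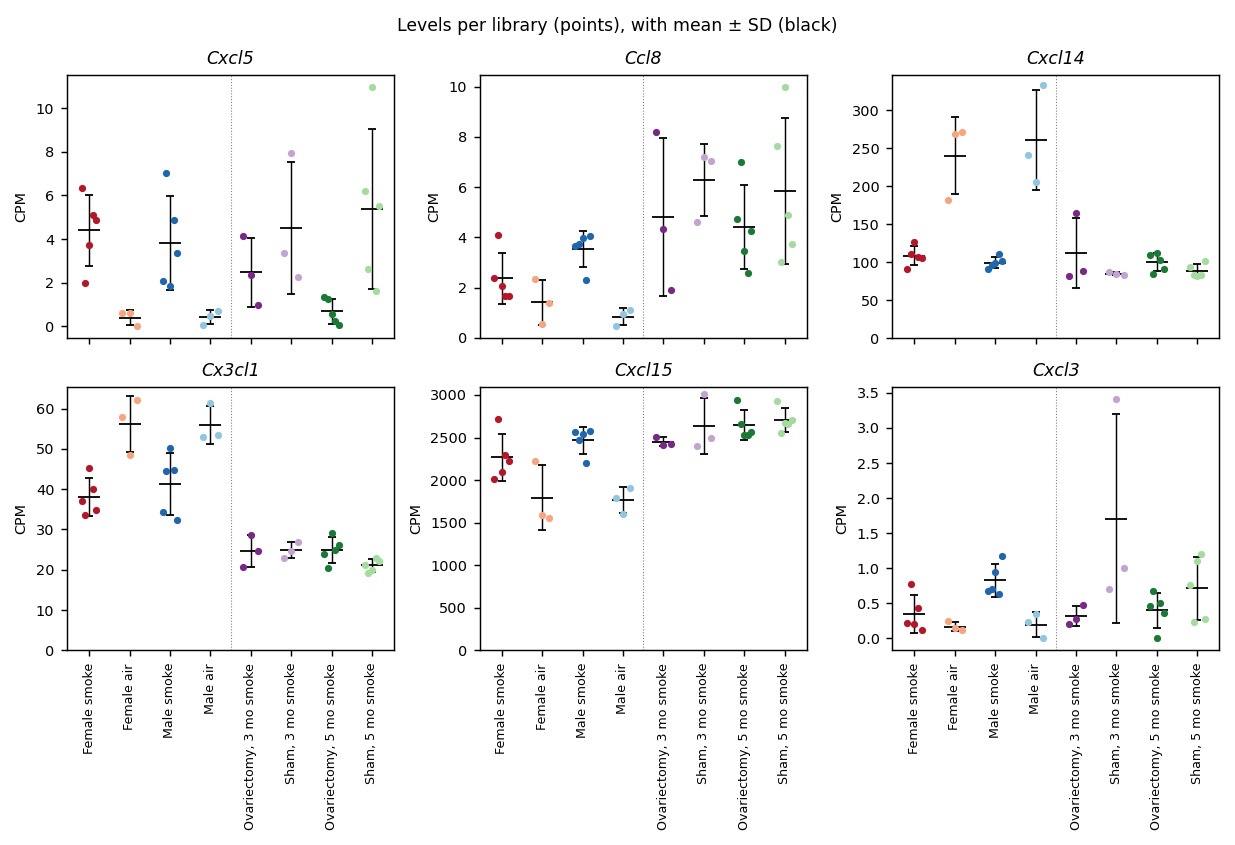
CPM in each library (points) with the mean and SD (black) for Cxcl5, Ccl8, Cxcl14, Cx3cl1, Cxcl15 and Cxcl3 in the 8 groups, the dotted line parting the 2 experiments, whose CPM scales were set separately. Cxcl5 lies at 1.98 to 6.35 CPM in smoke-exposed females and at 0 to 0.587 CPM in air, and Cxcl14 stands above 180 CPM in the air groups.

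The ligands of Ccr2, which draw classical monocytes, showed no change that passed. Ccl12, a Ccr2 ligand known from the mouse, was at 0.436 to 2.10 (median 1.62) CPM in smoke and 0.342 to 1.59 (median 1.26) CPM in air in females, and at 0.372 to 1.58 (median 1.16) and 0.238 to 1.70 (median 0.880) CPM in males. The groups overlapped in both sexes (0.39 and 0.12 as log2 fold changes). Ccl2, the best known monocyte attractant, had log2 fold changes of -0.41 (SE 0.39) in females and 0.15 (SE 0.39) in males, and Ccl7 of -0.44 and 0.14. Ccl2 and Ccl7 had 9 to 44 counts a library in females. The summed level of the monocyte markers was 444 to 609.5 CPM in smoke and 479 to 602 CPM in air in females, and 517 to 648 and 687 to 719 CPM in males. Of 8 classical monocyte markers 2 rose and 1 fell in females, and 2 rose and 2 fell in males: Ly6c2 rose in both (0.84 and 1.04), Plac8 in females (0.89) and the receptor Ccr2 in males (0.46), while Vcan fell in both (-0.97 and -0.93) and Fn1 in males (-0.49). Vcan and Fn1 are also matrix genes of fibroblasts.

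Of the ligands that draw monocytes, macrophages and T cells together, 0 of 5 passed in either sex with edgeR or DESeq2. At an unadjusted p under 0.05 there were 3 in females (Ccl3, Ccl5 and Ccl6) and 1 in males (Ccl6). Ccl6, the second most abundant member, was at 152 to 252 (median 183) CPM in smoke and 135 to 151 (median 149.8) CPM in air in females (log2 fold change 0.38, SE 0.16, adjusted p = 0.17). Males had 122 to 189 (median 156) CPM in smoke and 102 to 130.5 (median 118) CPM in air (log2 fold change 0.38, SE 0.16, adjusted p = 0.145). Every smoke library of females lay above every air library, in males they overlapped, and neither difference passed after adjustment. Ccl5, released by T cells and NK cells, was at 7.92 to 20.3 (median 12.3) CPM in smoke and 7.88 to 11.4 (median 8.12) CPM in air in females (log2 fold change 0.61, SE 0.29, adjusted p = 0.228), and Ccl9 was at 0.10 and -0.04 as log2 fold changes in females and males. Ccl3 and Ccl4, products of activated macrophages and lymphocytes, had at most 45 counts in any library. Of 8 alveolar macrophage markers 1 fell in females (Car4 -0.55) and 2 in males (Fabp1 -1.54 and Car4 -0.60). Capillary endothelium also expresses Car4. Of 8 interstitial macrophage markers 0 passed in females and 1 fell in males (Lyve1 -1.10, shared with lymphatic endothelium).

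The clearest fall belonged to Cxcl14. Cxcl14 (ENSMUSG00000021508, chr13:56288647-56296551) encodes a ligand present in resting epithelium and stroma that attracts monocyte-lineage cells. In females it was at 91.3, 111, 126, 107 and 106 CPM in smoke, against 182, 268 and 271 CPM in air. Males had 90.7, 95.9, 99.03, 111 and 102 CPM in smoke and 241, 206 and 334 CPM in air. All 10 smoke libraries lay below all 6 air libraries. The means were 108 ± 12.4 CPM in smoke (SD, n = 5) and 241 ± 50.9 CPM in air (SD, n = 3) in females (2.22-fold lower, log2 fold change -1.15, SE 0.15, adjusted p = 2.21e-04), and 99.6 ± 7.47 and 260.5 ± 65.9 CPM in males (2.61-fold lower, log2 fold change -1.39, SE 0.15, adjusted p = 2.98e-05). The interaction of sex and smoke did not pass (-0.24, SE 0.21, adjusted p = 0.941). Leaving out any single library kept both calls (adjusted p at most 0.00325). Fibroblast markers moved with it: of 6 markers 4 fell in each sex, namely Col1a1 (-1.25 in females and -1.77 in males), Col1a2, Col3a1 and Pi16. Their summed level was 1349 to 1742 CPM in smoke and 2473 to 2654 CPM in air in females, and 1727 to 1801 and 3035 to 4478 CPM in males, also without overlap. What part fibroblasts had in the fall of Cxcl14 was not tested.

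Cx3cl1 fell by less. Cx3cl1 (ENSMUSG00000031778, chr8:94772009-94782423) encodes fractalkine, a ligand tethered to epithelial and endothelial membranes that holds Cx3cr1-bearing monocytes. In females it was at 37.1, 33.6, 45.3, 39.9 and 34.8 CPM in smoke and 57.8, 48.4 and 62.2 CPM in air (log2 fold change -0.56, SE 0.13, adjusted p = 0.0103). In males it was at 34.3, 44.6, 50.3, 44.7 and 32.4 CPM in smoke and 52.9, 61.3 and 53.3 CPM in air (log2 fold change -0.43, SE 0.13, adjusted p = 0.0363). The smoke and air libraries did not overlap in either sex. In females the adjusted p was 0.0756 once female air library 3 was left out. In males it was 0.123 without air library 2, 0.0721 without air library 3, 0.0766 without smoke library 1 and 0.0754 without smoke library 5, so the call ended in each of these cases. Cxcl17, a ligand of the mucosal epithelium of airways, was at 21.05 to 44.6 (median 29.96) CPM in smoke and 35.4 to 52.4 (median 48.3) CPM in air in females (log2 fold change -0.45, SE 0.41, adjusted p = 0.587), and at 9.45 to 41.4 (median 21.6) and 20.03 to 36.0 (median 33.6) CPM in males (log2 fold change -0.39, SE 0.42, adjusted p = 0.645). Its libraries overlapped widely. The summed level of 6 club cell markers, which mark airway epithelium, was 9758 to 29648 CPM in smoke and 28644 to 40435 CPM in air in females, and 5758 to 36315 and 11975 to 33429.7 CPM in males. None of the 6 passed in either sex. Of 5 mesothelial markers 2 rose in females (Wt1 0.58 and Lrrn4 0.67) and 0 in males. Their part in Cx3cl1 and Cxcl17 was not tested.

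Eosinophil ligands showed no change that passed with edgeR or DESeq2. Ccl11, eotaxin, was at 2.58, 2.03, 2.32, 3.35 and 2.15 CPM in smoke and 3.69, 3.67 and 4.52 CPM in air in females, where smoke lay below air throughout (log2 fold change -0.67, SE 0.30, adjusted p = 0.197; unadjusted p = 0.0364). In males it was at 1.17 to 4.36 (median 3.05) CPM in smoke and 2.58 to 2.91 (median 2.82) CPM in air, with overlap (log2 fold change 0.13, SE 0.31, adjusted p = 0.859). Ccl24, the eotaxin of macrophages and epithelium, had log2 fold changes of 0.32 and 0.08 in females and males. Only 2 of 6 eosinophil markers passed the filter on low counts in the first experiment, and neither passed the test. Siglecf, which is also on the list of alveolar macrophage markers, was among them. In the second experiment 5 of 6 were tested, and 0 passed in either ovariectomy comparison. Epx, the eosinophil peroxidase gene, was at 0 in all libraries of male air. It was also at 0 in all libraries of 2 smoke groups, sham surgery at 3 months and ovariectomy at 5 months.

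Ccl8, in the mouse a ligand of Ccr8 on T cells, rose in males. Ccl8 (ENSMUSG00000009185, chr11:82115185-82116799) was at 3.64, 3.74, 3.98, 2.30 and 4.07 CPM in smoke, against 0.469, 0.939 and 1.13 CPM in air. Every smoke library lay above every air library, with means of 3.55 ± 0.716 CPM in smoke (SD, n = 5) and 0.846 ± 0.340 CPM in air (SD, n = 3), 4.16-fold higher (log2 fold change 2.06, SE 0.44, adjusted p = 0.00453). Females had 2.37, 4.12, 2.05, 1.67 and 1.66 CPM in smoke and 2.33, 0.538 and 1.41 CPM in air, where air library 1 lay inside the range of smoke (log2 fold change 0.74, SE 0.41, adjusted p = 0.321). The interaction of sex and smoke did not pass for Ccl8 (difference of log2 fold changes 1.32, SE 0.59, adjusted p = 0.854, unadjusted p = 0.0367). The male call held without any single library (adjusted p 0.00353 to 0.0310). Ccl1, the other Ccr8 ligand, had no read in any of the 16 libraries of this experiment. Of 10 T cell markers 1 rose in females (Il7r 0.58) and 1 fell in males (Cd4 -0.80).

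Of the ligands for effector T and NK cells, Cxcl9, Cxcl10 and Cxcl16 were tested and 0 of 3 passed in either sex with edgeR or DESeq2. Cxcl16, a membrane-bound ligand of Cxcr6, was at 75.04 to 82.9 (median 81.99) CPM in smoke and 67.3 to 77.4 (median 76.98) CPM in air in females (log2 fold change 0.12, SE 0.08, adjusted p = 0.406), and 76.1 to 86.1 (median 78.7) and 71.7 to 84.9 (median 73.8) CPM in males (log2 fold change 0.07, SE 0.08, adjusted p = 0.631). Those standard errors were the smallest of the 29 genes. Cxcl10, induced by interferon, was at 2.12 to 5.34 (median 3.39) CPM in smoke and 1.36 to 2.25 (median 2.23) CPM in air in females (log2 fold change 0.86, SE 0.38, adjusted p = 0.188; unadjusted p = 0.0336) and had a log2 fold change of 0.45 in males. Cxcl9, induced by interferon gamma, had log2 fold changes of 0.88 in females and 0.53 in males. Cxcl11 had at most 6 reads in a library here. Of 8 NK cell markers 0 passed in either sex, with medians of 0.47 and 0.38. Xcl1, made by NK and T cells and drawing Xcr1-bearing dendritic cells, was at 0.313 to 0.862 (median 0.553) CPM in smoke and 0.440 to 0.646 (median 0.486) CPM in air in females, and 0.149 to 0.387 (median 0.262) and 0.352 to 0.586 (median 0.357) CPM in males, at 2 to 13 counts a library.

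Ccl21a, Ccl19 and Ccl20, which draw dendritic cells and lymphocytes through Ccr7 and Ccr6, did not pass in either sex. Ccl21a was at 57.3, 81.9, 56.3, 57.2 and 56.6 CPM in smoke and 80.7, 76.01 and 92.2 CPM in air in females (log2 fold change -0.42, SE 0.16, adjusted p = 0.124). In males it was at 55.8, 58.2, 61.5, 81.5 and 91.1 CPM in smoke and 99.1, 85.3 and 91.7 CPM in air (log2 fold change -0.40, SE 0.16, adjusted p = 0.126). In each sex 4 of 5 smoke libraries lay below every air library, the exceptions being female smoke library 2 and male smoke library 5. Without female smoke library 2 the female difference passed (log2 fold change -0.54, adjusted p = 0.0216), and without male smoke library 5 the male difference passed (-0.52, adjusted p = 0.0270). Of 6 lymphatic endothelial markers 1 rose in females (Pdpn 0.52, also high in alveolar type 1 cells), while in males Pdpn rose (0.34) and Lyve1 (-1.10) and Flt4 (-0.62) fell. The summed level of the 6 markers was 460.0 to 566 CPM in smoke and 561 to 604 CPM in air in females, and 497 to 607 and 565 to 911 CPM in males. Their part in Ccl21a was not tested. Ccl20, an epithelial ligand for Ccr6, was at 0.0727 to 1.72 CPM in smoke and 0.0588 to 0.293 CPM in air in females (log2 fold change 1.98, SE 0.90, adjusted p = 0.206) and had a log2 fold change of -0.21 in males. Ccl19 had -0.53 and -0.79. Of 8 dendritic cell markers, 2 fell in females (Flt3 -0.84 and Fscn1 -0.81) and 1 in males (Fscn1 -0.95). Of 8 B cell markers 0 passed in either sex.

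The ligands of Ccr9 and Ccr10, known from gut, skin and mucosa, were Ccl25, Ccl27a and Ccl28, and 0 of 3 passed with edgeR. Ccl27a was at 7.44, 8.47, 7.13, 8.63 and 9.38 CPM in smoke and 6.27, 4.34 and 5.23 CPM in air in males, without overlap (log2 fold change 0.64, SE 0.21, adjusted p = 0.0582), and DESeq2 called that rise (adjusted p = 0.0400). In females it was at 5.46 to 10.5 (median 7.49) CPM in smoke and 6.26 to 9.46 (median 9.04) CPM in air (log2 fold change -0.09, SE 0.20, adjusted p = 0.851). Ccl25 had log2 fold changes of -0.08 in females and 0.11 in males, and Ccl28 of 0.32 and 0.07.

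Male lungs were set against female lungs in smoke and in air to ask whether the sexes differ in these genes. DESeq2 gave an adjusted p to 29 of the genes in smoke, 19 in air and 23 for the interaction, and to 28 for ovariectomy at 3 months, 24 at 5 months, 10 for time and 24 for surgery by time. In smoke 0 of 29 passed edgeR's test and 0 passed DESeq2, against 0.189% of all genes called by edgeR. At an unadjusted p under 0.05 there were 2, against 7.74% of all genes. In air 0 of 29 passed with either tool, against 0.177% of all genes, and 2 had an unadjusted p under 0.05, against 9.27%. The interaction of sex and smoke gave 0 of 29 with either tool, against 0.00611% of all genes, a single gene. Ccl3, Ccl8 and Ccl27a, 3 of 29, had an unadjusted p under 0.05 there, against 5.75% of all genes. The largest separated difference was Ccl3 in air, at 0.176, 0.117 and 0.178 CPM in males and 1.07, 2.20 and 0.294 CPM in females, with no overlap (log2 fold change -2.87, SE 0.90, adjusted p = 0.261). It rests on 2 to 3 counts a library in males and 5 to 45 in females, and the share of all genes without overlap was not counted. In smoke the sexes overlapped for Ccl3, at 0.0584 to 1.12 CPM in males and 0.145 to 0.729 CPM in females. Cxcl5 was at log2 differences of -0.19 (SE 0.49) in smoke and 0.03 (SE 0.88) in air between males and females. Ccl5 and Ccl6 had the smallest unadjusted p in smoke, with log2 differences of -0.56 and -0.31 (adjusted p = 0.619).

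Whether removal of the ovaries alters the chemokines of the smoke-exposed lung was asked at 3 and 5 months. At 3 months 0 of 29 passed edgeR's test and 0 passed DESeq2, and 0.0% of all 16874 genes passed edgeR's test. With edgeR 1 of the 29 had an unadjusted p under 0.05, against 9.29% of all genes. Cxcl3 was at 0.206, 0.281 and 0.481 CPM after ovariectomy and 0.706, 3.42 and 0.998 CPM after sham surgery, all ovariectomy libraries being the lower (log2 fold change -2.36, SE 0.90, adjusted p = 0.419). Ccl4 was at 0.550, 0.393 and 0.214 CPM after ovariectomy and 1.03, 1.16 and 0.811 CPM after sham surgery, also without overlap (log2 fold change -1.37, SE 0.94, adjusted p = 0.666). Neither Cxcl3 nor Ccl4 passed, nor did Cxcl3 with any single library left out (adjusted p 0.370 to 0.860). With 3 libraries a group, separation is a weak criterion, and its share over all genes was not counted. Cxcl5 at 3 months was at 4.13, 2.36 and 0.962 CPM after ovariectomy and 3.34, 7.93 and 2.25 CPM after sham surgery, with overlap (log2 fold change -0.87, SE 0.85, adjusted p = 0.793). The median log2 fold change of the 29 genes at 3 months was -0.18, against 0.00 over all genes.

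At 5 months Cxcl5 did not overlap between ovariectomy and sham surgery. The share of all genes without overlap was not counted. Cxcl5 was at 1.35, 1.23, 0.574, 0.250 and 0.0602 CPM after ovariectomy, against 6.18, 2.64, 11.0, 1.61 and 5.53 CPM after sham surgery. The highest ovariectomy library lay below the lowest sham library. The means were 0.693 ± 0.577 CPM after ovariectomy and 5.39 ± 3.67 CPM after sham surgery (SD, n = 5 each). The 7.67-fold lower level missed the threshold with edgeR (log2 fold change -2.94, SE 0.72, adjusted p = 0.0659), and DESeq2 called it (log2 fold change -2.95, adjusted p = 0.00311). Leaving out single libraries gave adjusted p of 0.0598 to 0.137 with edgeR. So 0 of 29 genes passed with edgeR, against 1.36% of all genes called by edgeR. DESeq2 gave an adjusted p to 24 of the 29 and called 1, Cxcl5. The share of all genes that DESeq2 called is not given here. With edgeR 6 of the 29 had an unadjusted p under 0.05, against 15.5% of all genes. Whether surgery acted differently at the 2 times was not shown for Cxcl5 (5 months minus 3 months -2.07, SE 1.10, adjusted p = 0.938).

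**Figure D4:**
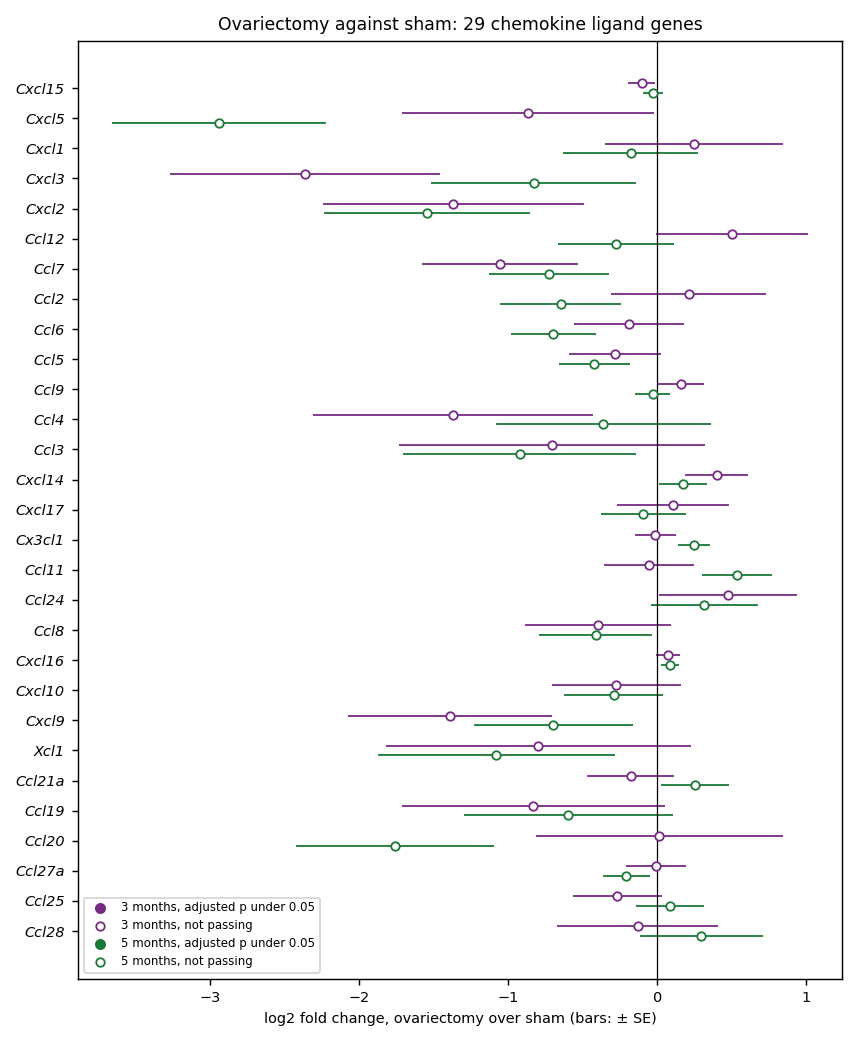
log2 fold change of ovariectomy over sham surgery (x axis, bars ± SE) for the 29 tested chemokine ligand genes at 3 months (purple) and 5 months (green) of smoke, with filled points for an adjusted p under 0.05. No point is filled, and Cxcl5 at 5 months (-2.94) lies farthest to the left.

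Other neutrophil ligands at 5 months had log2 fold changes of -1.55 for Cxcl2 (unadjusted p = 0.0348 with edgeR), -0.83 for Cxcl3, -0.18 for Cxcl1 and -0.03 for Cxcl15, each with overlap of the groups. Cxcl15 was at 2531 to 2945 CPM after ovariectomy and 2553 to 2934 CPM after sham surgery, with overlap throughout. The median over the 29 genes was -0.29, against -0.01 over all genes. Ccl20 was at 0.592, 0.613, 0.731, 0.450 and 0 CPM after ovariectomy and 0.347, 0.401, 2.47, 2.64 and 2.32 CPM after sham surgery, overlapping through sham libraries 1 and 2 (log2 fold change -1.76, SE 0.67, adjusted p = 0.194). Those 2 sham libraries and ovariectomy library 5 are the ones over 100 CPM of Alb at 5 months. Without the libraries over that level Ccl20 passed (log2 fold change -2.04, adjusted p = 0.0401) and was then the single member called. The share of all genes called in that setting is not given here. The other genes with an unadjusted p under 0.05 were Ccl6 (-0.70), Cx3cl1 (0.24) and Ccl11 (0.54). Ccl6 was at 201, 158, 145, 149 and 154 CPM after ovariectomy and 270.0, 202, 495, 156 and 188 CPM after sham surgery, where sham library 3 was the highest of all. Neutrophil markers were at a summed 124 to 212 CPM after ovariectomy and 128 to 347 CPM after sham surgery, with 0 of 11 passing (median log2 fold change -0.50). Their part in Cxcl5 was not tested.

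Time was compared as 5 against 3 months of smoke, averaged over surgery. Of the 29 genes 0 passed with edgeR, against 0.13% of all genes called by edgeR, and 1 had an unadjusted p under 0.05 with edgeR, against 13.4%. DESeq2 gave an adjusted p to only 10 of the 29, and 0 of these passed. The gene with the smallest p was Cxcl16, at 87.4, 99.2 and 97.1 CPM after ovariectomy and 85.2, 95.3 and 89.7 CPM after sham surgery at 3 months, and 103, 99.5, 105, 99.7 and 117 CPM and 98.4, 104, 98.5, 96.7 and 97.6 CPM at 5 months (log2 fold change 0.14, SE 0.05, adjusted p = 0.186). The interaction of surgery and time gave 0 of 29 with edgeR, against 0.0% of all genes, and 0 at an unadjusted p under 0.05, against 5.0%. For that interaction DESeq2 gave an adjusted p to 24 of the 29, and 0 of these passed. Levels of the class leaders in this experiment were 1.07 to 2.58 CPM for Ccl12 after ovariectomy and 1.09 to 1.65 CPM after sham surgery at 3 months, and 0.818 to 3.002 and 1.16 to 3.35 CPM at 5 months. For Ccl8 the same groups had 1.92 to 8.19, 4.62 to 7.20, 2.60 to 7.02 and 3.04 to 10.01 CPM, all overlapping. For Cxcl14 they had 81.9 to 165, 83.3 to 87.5, 84.8 to 113 and 82.4 to 102 CPM, with ovariectomy library 2 at 3 months the highest. Ccl21a stood at 48.1 to 92.3, 58.99 to 79.4, 56.8 to 76.8 and 30.7 to 67.9 CPM, and Ccl27a at 8.65 to 9.35, 7.64 to 11.2, 6.81 to 10.3 and 8.32 to 11.8 CPM. Xcl1 reached at most 21 counts in a library. Ccl11 was at 2.96 to 4.33, 3.24 to 4.39, 2.83 to 5.52 and 2.35 to 3.81 CPM.

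Levels in TPM were also set side by side between the experiments. TPM is a share of transcripts, and no correction for library composition was made. The first experiment holds males and air libraries, whereas the second holds only smoke-exposed females. Cx3cl1 was at 12.3 to 18.6 TPM over the 16 libraries of the second experiment and at 19.5 to 38.8 TPM over the 16 of the first, without overlap. Cxcl16 went the other way, at 70.04 to 89.9 TPM in the second and 54.4 to 68.5 TPM in the first, also without overlap. How many of all genes part the experiments was not counted. Within smoke-exposed females of 5 months, Cx3cl1 was at 12.3 to 15.2 TPM after sham surgery and 21.2 to 29.4 TPM without surgery. Cxcl17 was at 22.97 to 74.5 TPM after sham surgery and 57.8 to 120.2 TPM without surgery, with overlap. Surgery and experiment cannot be told apart here, and no test was made. Summed club cell markers were at 20539.7 to 36302 TPM after sham surgery and 37521 to 115115 TPM without surgery, and their part in these levels was not tested. Cxcl5 was at 2.14 to 14.9 TPM after sham surgery and 2.50 to 8.11 TPM without surgery, with overlap.

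Genes that act with the ligands were counted too. Of all genes 7.7% were called for smoke in females and 10.3% in males. The lists were drawn up with earlier results of these data known, so their counts cannot be weighed against these shares. Of 17 chemokine receptor genes, 14 were tested in the first experiment: Cxcr5, the B cell receptor for Cxcl13, rose in females (log2 fold change 0.73, adjusted p = 0.00317), Cxcr4 fell in females (-0.38), and Ccr2 rose in males (0.46). Cxcr2, a receptor for neutrophil ligands, had log2 fold changes of 0.30 in females and 0.63 in males and did not pass. Of 5 atypical receptors, which bind ligands without driving migration, 0 passed in females, and Ackr2 (-0.66) and Ackr3 (-0.57) fell in males. Of 6 further ligand genes, 2 rose and 3 fell in females and 2 rose and 2 fell in males. Cxcl13, which draws B cells, rose by 1.81 and 1.83, and the platelet ligand Ppbp by 1.91 and 1.21 on the log2 scale in females and males. Ccl22 (-0.96 and -0.84) and Cxcl12 (-0.53 and -0.56) fell in both sexes, and Ccl17 fell in females (-0.92). All of these receptor and ligand lists had 0 called in both ovariectomy comparisons.

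Among 13 tested genes of the NF-kB pathway and its targets, Il1b (1.43 in females and 1.30 in males) and Icam1 (0.54 and 0.51) rose, and Nfkbia, the inhibitor that NF-kB induces, fell (-0.43 and -0.46). Nfkb1 also fell in males (-0.27). The members of this list moved in both directions, with a median of -0.06 in females and -0.09 in males. Of 11 tested interferon response genes 1 rose in each sex, Gbp2 in females (0.59) and Ifit3 in males (0.53), beside Cxcl9 and Cxcl10, which did not pass. Of 5 tested genes of the interleukin 17 axis, which drives epithelial neutrophil ligands, 0 passed in females and Lcn2, a neutrophil and epithelial product, rose in males (0.43). After ovariectomy at 5 months Nfkbiz, a cofactor of NF-kB that belongs to both that axis and the NF-kB list, fell (log2 fold change -0.67, adjusted p = 0.0382), as did Stat2 of the interferon list (-0.47, adjusted p = 0.0179). At 3 months 0 genes of these 3 lists passed.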

How the data were processed

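Poly(A) RNA of mouse lung was measured in 32 libraries of 8 groups, assigned from the labels. The authors deposited gene counts, and a second table whose header does not name its unit. Its values equal count over gene length rescaled to a fixed total in 100% of cases within 1e-06, so these deposited values are TPM. Quality control used FastQC and the build is GRCm38 (mm10), per the submitters' processing notes; the aligner and counter were not given in the sources used here. All columns of per-sample values were mapped (0 left over).

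Each experiment was fitted once, its 4 groups sharing 1 dispersion, with edgeR 4.0.16 in R 4.3.3 (filterByExpr, TMM scaling, quasi-likelihood F test, Benjamini-Hochberg over all genes, called at an adjusted p under 0.05). SE is the log2 fold change over the square root of F. The procedure was tested on simulated data. Although the rule for the members is a list of names, that list, the classes and the companion lists were drawn up with earlier results of these data known. Library values are given for members called in at least 1 comparison, for uncalled ones with an absolute log2 fold change of at least 1 and no overlap, and for the most abundant member of each class. Alternatives were other scaling (RLE), DESeq2 1.42.0, low-count filters, the replicate number as a block and leaving out each library. Leaving out libraries over 100 CPM of Alb was chosen after seeing the data. Figures used Python with pandas and matplotlib. A receptor gene of the companion list is not reported here.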

Additional observations from a re-analysis of the deposited data

Results flagged for a closer look

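In 116 groups of 5 libraries (29 genes in 4 groups), the highest or lowest library was compared with the rest by Dixon's ratio (critical value 0.71), and 10 stood apart; chance alone gives about 1 in 20. In smoke-exposed males, Cxcl15 in library 4 was the lowest at 2197 CPM (others 2470.0 to 2571 CPM), as was Ccl8 in library 4 at 2.30 CPM (3.64 to 4.07 CPM), and Ccl5 in library 1 was the highest at 13.5 CPM (8.001 to 8.87 CPM). In smoke-exposed females, Ccl21a in library 2 was the highest at 81.9 CPM (56.3 to 57.3 CPM). After ovariectomy at 5 months, Ccl6 in library 1 was the highest at 200.7 CPM (145 to 158 CPM), Ccl24 in library 2 at 2.52 CPM (1.39 to 1.65 CPM) and Ccl28 in library 3 at 2.87 CPM (1.02 to 1.44 CPM). After sham surgery at 5 months, Cxcl9 in library 3 was the highest at 6.71 CPM (1.03 to 1.77 CPM), Ccl11 in library 5 at 3.81 CPM (2.35 to 2.71 CPM) and Cxcl16 in library 2 at 103.8 CPM (96.7 to 98.5 CPM).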

How the results depend on the processing

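Of the recomputed counts of called genes, 147 stayed within 1.5 times the main count and 3 did not. Most belong to comparisons whose main count was 0, where staying at 0 was taken as unchanged and a ratio has no meaning. Of the fold changes of called genes 105 kept their side of the threshold and 7 lost it, with no reversal. Over all members and alternatives 7 calls were gained: Cxcl15 in females with DESeq2 and without female air library 1, Ccl21a in females without smoke library 2 and in males without smoke library 5, Ccl27a in males with DESeq2, and Cxcl5 and Ccl20 after ovariectomy as given next. For ovariectomy against sham surgery at 5 months the count of 0 became 1 with DESeq2 (Cxcl5, log2 fold change -2.95, adjusted p = 0.00311) and 1 without libraries over 100 CPM of Alb (Ccl20, -2.04, adjusted p = 0.0401); the cause was not tested. Leaving out single libraries gave 3 to 5 called genes for smoke in males, the lowest without male air library 2, and 2 to 4 in females. With the replicate block, smoke in males gave 4 genes, Cxcl5 having a log2 fold change of 2.97 (adjusted p = 0.0549), and smoke in females gave 3. Same-numbered libraries correlated over 0.1 in 6 of 20 pairs in the first experiment and 3 of 20 in the second, so the numbers were not taken as a pairing. Cxcl3, Ccl3 and Xcl1 had at most 56, 45 and 21 counts in any library, which sets the counting error of their values.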
